A study of Mus musculus with 5 samples.

Results

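Mt1 and Mt2 encode the ubiquitous mouse metallothioneins. They are 2 of the 8251 genes that the arrays measured with a probe set of 1 symbol. The table of 12488 probe sets, 66 of them the maker's controls, held 1 probe set for each gene, and both were read on all 5 arrays. They were picked because both had been seen to be bright in the AxJ lines and dim in A20, so their difference between AxJ and A20 is described here and not tested. Both passed the filter on dim probe sets, Mt1 only through its bright AxJ values and Mt2 on every array.

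Each array held polyadenylated RNA of 1 mouse cell culture. AxJ, the source of 4 of the cultures, is a mouse line of plasma cells, the B lineage cells that secrete antibody. The hnRNP-F group was AxJ stably transfected to overexpress the RNA-binding protein hnRNP-F, as subclones D6 and B5 (1 array each). The AxJ controls were AxJ overexpressing the related protein hnRNP-H (1 array) and AxJ with empty vector (1 array). The reference outside AxJ was A20, labelled a memory B cell line, with no transfection named (1 array). All 4 AxJ cultures grew in IMDM with 5% FCS and 1 mg/ml of the selection drug G418, while the label of A20 lists the same medium and serum without G418. The line, its transfection and the drug therefore cannot be told apart in any comparison of AxJ with A20. Each AxJ derivative was a selected clone, chosen by western blot where it overexpressed F or H. Since no label speaks of repeat cultures, the p-values cover no more than the spread between these arrays. No probe set carried the symbol Hnrnpf, so its overexpression could not be followed. The Hnrnph1 probe set was lower in the array labelled hnRNP-H than in that of empty vector. Whether that probe set reads RNA of the transfected hnRNP-H was not tested. Median deposited intensities ran from 37.7 to 41.7 in AxJ and stood at 33.8 in A20.

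Metallothioneins are small proteins rich in cysteine that bind zinc and copper and take up cadmium. Zinc drives their transcription through the factor MTF-1, encoded by Mtf1, which binds short metal response elements in their promoters. Glucocorticoids and cytokines that act through STAT3, such as interleukin 6, are further known inducers. Mt3 is best known from brain and Mt4 from stratified epithelium, and the 4 genes stand together on mouse chromosome 8.

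In RefSeq's GRCm38.p6 annotation Mt2 spans chr8:94172618-94173567 and Mt1 spans chr8:94178883-94180327, with 5315 bases between them. The promoter windows from RefSeq (GRCm38.p6), 250 bases before to 50 after the start of the transcript used, are shown because the metal response elements are the shared control feature of this pair. Capitals mark matches to the core of the element, searched as TGCACNC and as TGCGCNC on both strands, with no overlap between matches in these windows. The Mt1 window lies at chr8:94178839-94179138 and the Mt2 window at chr8:94172368-94172667, both on the plus strand.
Mt1: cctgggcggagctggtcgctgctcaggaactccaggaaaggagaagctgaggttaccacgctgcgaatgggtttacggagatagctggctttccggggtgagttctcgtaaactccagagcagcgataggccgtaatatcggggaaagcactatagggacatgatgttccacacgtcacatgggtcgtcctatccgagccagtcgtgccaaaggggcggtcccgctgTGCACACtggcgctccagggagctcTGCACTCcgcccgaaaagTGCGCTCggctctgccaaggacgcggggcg
Mt2: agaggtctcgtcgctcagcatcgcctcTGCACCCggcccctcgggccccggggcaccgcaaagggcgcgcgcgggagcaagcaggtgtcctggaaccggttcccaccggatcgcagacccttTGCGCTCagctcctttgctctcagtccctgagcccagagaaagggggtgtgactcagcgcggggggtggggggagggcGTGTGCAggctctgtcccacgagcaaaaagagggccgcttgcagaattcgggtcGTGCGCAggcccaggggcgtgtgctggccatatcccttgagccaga

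The Mt1 window held 3 matches, all on the plus strand, and the Mt2 window held 4, of which 2 were on the minus strand. Counted from the start base of the transcript used, the Mt1 matches begin at -23, 2 and 20. Those of Mt2 begin at -223, -128, -50 and 4, so in both windows some matches lie after the start. The transcript used for Mt1 starts inside the stated Mt1 span, and all 3 Mt1 matches lie within that span. For Mt2 the transcript used starts where its span starts. The windows of the pair therefore cover unlike stretches relative to the stated spans. Among all 32851 RefSeq promoter windows of the same length, 12.6 percent held TGCACNC and 15.4 percent held TGCGCNC. At least 3 matches were found in 1.97 percent of windows and at least 4 in 0.517 percent. The Mt3 and Mt4 windows held 1 match each, as at least 1 did in 25.7 percent of windows. These matches are letters in a window. Binding of MTF-1 was not measured.

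Levels are given as deposited, a linear intensity. A like trimmed mean on each array was read from the values and is taken as the authors' scaling. Differences under the authors' scaling use the deposited values with no further normalisation. Mt1 read 2455 in D6, 3916 in B5, 2727 in hnRNP-H and 2115 in empty vector, against 5.7 in A20. All 4 AxJ lines were bright, and the A20 value lay below the filter on dim probe sets at 21.8. Set against that filter level in place of the dim value, the lowest AxJ line as deposited was at least 96.9-fold higher than A20. The filter level itself was set on normalised values, where Mt1 had 1978 in empty vector and 7.87 in A20. In bulk RNA of a culture, fewer expressing cells and less RNA per cell cannot be told apart. Mt2 read 6192 in D6, 8890 in B5, 7724 in hnRNP-H and 7009 in empty vector, against 104.6 in A20. The 4 AxJ values lay close together, and the lowest exceeded A20 by a factor of 59.2.

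The dim side differed between the genes. On the A20 array the Mt1 value stood at the 22.9 percentile of all probe sets, below the filter level. The Mt2 value stood at the 67.6 percentile, above the A20 median of 33.8. The description of both genes as near background in A20 therefore held for Mt1 and not for Mt2. No detection calls came with these values, and how far the Mt2 probes also bind RNA of its close relatives was not tested. On the AxJ arrays Mt1 stood between the 97.8 and 98.9 percentile and Mt2 between the 99.3 and 99.7 percentile.

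**Figure D1:**
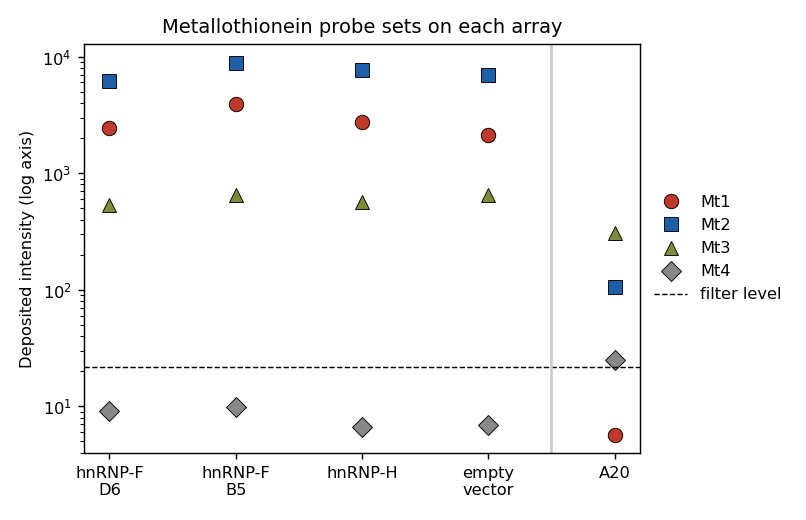
Deposited intensity (log axis) of the probe sets for Mt1, Mt2, Mt3 and Mt4 on each of the 5 arrays, 1 point an array, with the dashed line at the filter level of 21.8. Mt1 and Mt2 are high on the 4 AxJ arrays and lower on A20, where Mt2 stays above the line and Mt1 falls below it.

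Differences were taken after quantile normalisation, as log2(intensity + 6.55). The mean of the AxJ lines minus A20 was 7.54 for Mt1 (SE 0.32) and 6.03 for Mt2 (SE 0.31). Of 9107 probe sets kept, Mt1 ranked 2nd and Mt2 ranked 7th by this difference. These values chose the genes and are a description. The size for Mt1 depended on the pseudocount, being 8.23 with a pseudocount of 1 and 6.50 with one at the 40th percentile, since its A20 value lay near the bottom of the scale. For Mt2 the difference was 6.11 and 5.85 in those settings. As ratios of deposited values, the AxJ mean was at least 128 times A20 for Mt1, taken against the filter level (AxJ mean 2803 ± 783, SD, n = 4), and 71.2 times for Mt2 (AxJ mean 7454 ± 1144, SD, n = 4).

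The choice of genes did not use the comparison within AxJ, which asks whether hnRNP-F overexpression went with a change of metallothionein mRNA. The Mt1 level averaged 3185 ± 1033 in the hnRNP-F clones and 2421 ± 433 in the AxJ controls (SD, n = 2 each, deposited). B5 was the highest of the AxJ lines and D6 lay between hnRNP-H and empty vector, so the groups overlapped. The difference of 0.36 on the log2 scale (SE 0.29) did not pass the limma test (adjusted p = 0.818, unadjusted p = 0.243). The Mt2 level averaged 7541 ± 1907 in the hnRNP-F clones and 7366 ± 505 in the AxJ controls (SD, n = 2 each, deposited). As deposited, the clones held both the highest value, in B5, and the lowest, in D6. After quantile normalisation D6 had 6447 and B5 had 7591, while the controls held both extremes, hnRNP-H with 9307 and empty vector with 5906. The Mt2 difference of -0.08 (SE 0.28) did not pass either (limma adjusted p = 0.971, unadjusted p = 0.770), and its sign turned to 0.01 under the authors' scaling. In this comparison 1 of 9107 probe sets passed, which is 0.011 percent, and the clones lay both above or both below the controls for 37.6 percent of probe sets.

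Among the AxJ lines the order of the Mt1 level was B5, hnRNP-H, D6 and empty vector, as deposited and after normalisation. For Mt2 it was B5, hnRNP-H, empty vector and D6 as deposited, and hnRNP-H, B5, D6 and empty vector after normalisation, so the Mt2 order depended on the scaling. As deposited, the spread between the hnRNP-F clones exceeded every gap between neighbours in the Mt2 order, while for Mt1 the gaps between hnRNP-H, D6 and empty vector were smaller than the SD of the clones and the gap from B5 to hnRNP-H was larger. The highest over the lowest AxJ value was 1.85 for Mt1 and 1.44 for Mt2 as deposited, and 1.81 and 1.58 after normalisation. The 570 probe sets with an AxJ mean over 1000 had a median of 1.62 for the deposited ratio. A smaller ratio than that of Mt1 was found for 70.2 percent of them and a smaller ratio than that of Mt2 for 33.9 percent.

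**Figure D2:**
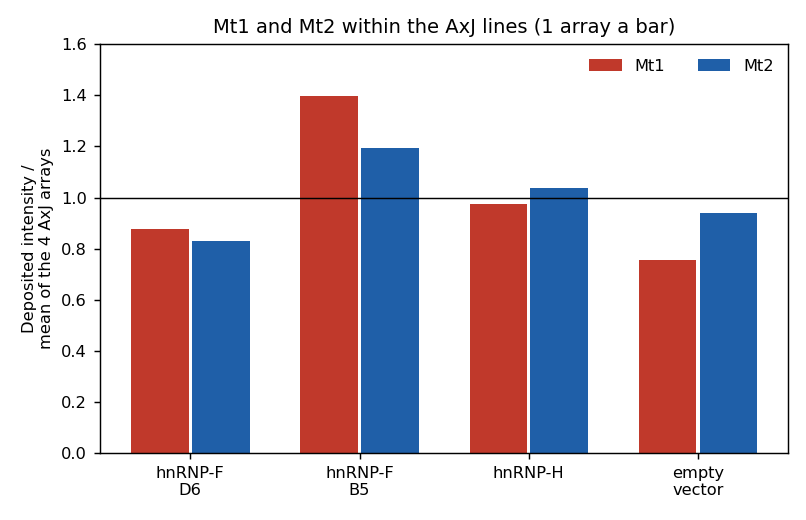
Deposited intensity of Mt1 and Mt2 in each AxJ line, divided by the mean of the 4 AxJ arrays, 1 array a bar. B5 has the highest bar for both genes, the lowest is empty vector for Mt1 and D6 for Mt2, and the highest over the lowest is 1.85 for Mt1 and 1.44 for Mt2.

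The hnRNP-H line and the empty vector line had 1 array each and were not tested. The ratio of hnRNP-H to empty vector as deposited was 1.29 for Mt1 and 1.10 for Mt2. On the normalised log2 scale the differences were 0.50 for Mt1 and 0.66 for Mt2, and the Mt2 value fell to 0.14 under the authors' scaling, so that quantile normalisation set most of its size. Neither reached the 2-fold size that 18.1 percent of probe sets reached in this pair. Clone D6 stood below clone B5, with a ratio of 0.63 for Mt1 and 0.70 for Mt2 as deposited. The normalised log2 differences were -0.48 for Mt1 and -0.24 for Mt2, and 12 percent of probe sets reached 2-fold in this pair.

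The Gapdh control probe sets give a 5' over 3' signal ratio, which reflects RNA integrity or labelling. It was 0.683 in D6, 0.181 in B5, 0.866 in hnRNP-H, 0.212 in empty vector and 0.384 in A20. B5, the line with the most Mt1 signal, and empty vector, the line with the least, both had a low ratio. The ratio class (low in B5 and empty vector) was also fitted as a block. Each side of the hnRNP-F comparison held a low and a high array, so the block could not move that difference. It was 0.36 for Mt1 and -0.08 for Mt2 by design, and a part of the ratio in it was not tested. With the block the difference of AxJ minus A20 was 7.54 for Mt1 and 6.14 for Mt2, where A20 (0.384) was classed with D6 and hnRNP-H.

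The other measured metallothionein genes and the zinc sensor had log2 differences between AxJ and A20 from -1.33 to 1.03. Mt3 read 533 in D6, 655 in B5, 565 in hnRNP-H and 653 in empty vector, against 307 in A20. Each AxJ value lay above A20, with a log2 difference of 1.03 (SE 0.30) that missed the threshold (limma adjusted p = 0.0775). Mt4 read 9.11 in D6, 9.84 in B5, 6.66 in hnRNP-H and 6.88 in empty vector, against 24.8 in A20. It was dim on every array and its difference of -1.33 (SE 0.71) did not pass (adjusted p = 0.341). Mtf1, which encodes the zinc sensor, read 102 in D6, 73.4 in B5, 46.3 in hnRNP-H and 98.7 in empty vector, against 94.8 in A20. The A20 value lay inside the AxJ range, and the difference was -0.29 (SE 0.47, limma adjusted p = 0.804).

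The genes around the locus were read next, 10 measured genes on each side, reaching 3037 kb before Mt2 and 1240 kb after Mt1. Mt3 and Mt4 are the nearest measured genes before Mt2, and Nup93, a gene of the nuclear pore, is the nearest after Mt1. None of the 20 passed between AxJ and A20 in the limma fit, while 6 had an unadjusted p under 0.05. Of all probe sets tested 7.28 percent were called in this comparison and 21.2 percent had an unadjusted p under 0.05. The median difference of the 20 neighbours was 0.13 and they ranged from -1.70 to 1.03, beside a median of 0.03 over all probe sets. Nup93 differed by -0.94 (SE 0.37, limma adjusted p = 0.183). In the hnRNP-F comparison Nup93 differed by 0.01.

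**Figure D3:**
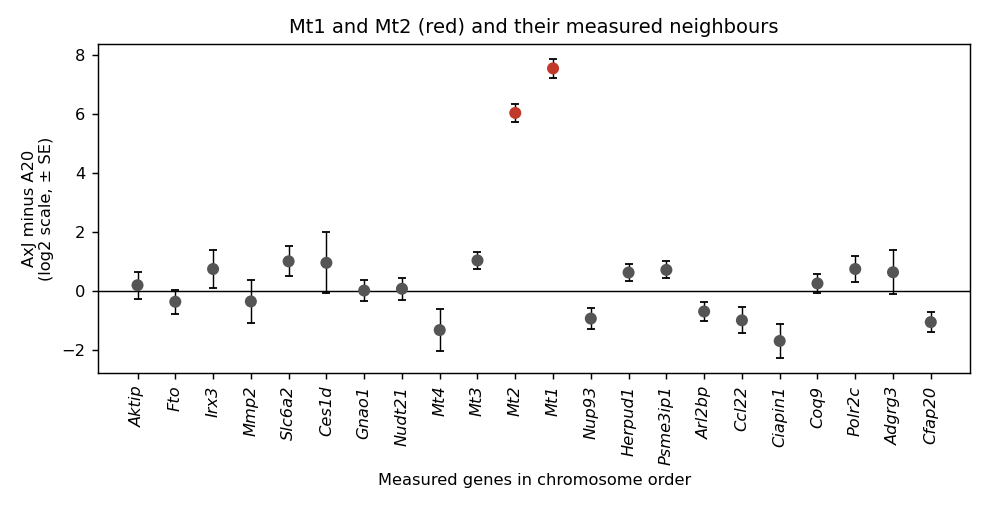
Difference of AxJ minus A20 (log2 scale, bars show the SE of the fit) for Mt1, Mt2 and the 10 nearest measured genes on each side, in chromosome order and not to scale. Mt2 at 6.03 and Mt1 at 7.54 stand above all 20 neighbours, which lie between -1.70 and 1.03.

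Genes of metal handling were compared between AxJ and A20 in the same fit. Of 13 measured genes in the list of zinc transporters and the sensor, none passed and 1 had an unadjusted p under 0.05 (limma), with a median difference of 0.32 and 9 genes above 0. Over all probe sets 7.28 percent were called and 21.2 percent had such a p. Slc39a7, a zinc channel of the endoplasmic reticulum, came nearest. It read 920 in D6, 1294 in B5, 992 in hnRNP-H and 589 in empty vector, against 369 in A20, a log2 difference of 1.37 (SE 0.35, adjusted p = 0.0506). It passed, as the 1 call in the list, with the Gapdh class as a block (1.44, adjusted p = 0.0435), under a higher filter (0.0437), without the hnRNP-H array (0.0443) and without empty vector (0.0214). Slc30a1, the zinc exporter that is a classical MTF-1 target, read 24.9 in D6, 54 in B5, 19.3 in hnRNP-H and 20.9 in empty vector, against 10.5 in A20. It was dim throughout, with a difference of 0.73 (SE 0.59, adjusted p = 0.570), and was singled out after its values were seen. Slc30a3, a vesicular zinc transporter, differed by 0.59 (SE 0.34).

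Of 9 measured copper genes none passed and 2 had an unadjusted p under 0.05 (limma, median 0.37). Over all probe sets 21.2 percent had such a p. The copper chaperone of superoxide dismutase, Ccs, differed by 0.96 (SE 0.35), with 0.44, 0.02 and 0.73 for its other probe sets. The copper importer Slc31a1 differed by 0.80 (SE 0.33), with -0.18 for its other probe set. Of 15 iron genes 1 was higher in AxJ and 1 lower, with a median of 0.11. This is 13.3 percent called, beside 7.28 percent over all probe sets. Tfrc, the transferrin receptor, rose by 1.62 (SE 0.31, limma adjusted p = 0.0186), though its other probe set differed by 0.90 and did not pass (adjusted p = 0.577). Hmox1, which encodes the haem-degrading enzyme heme oxygenase and, like the metallothioneins, is known to be induced by heavy metals, read 370 in D6, 1149 in B5, 841 in hnRNP-H and 439 in empty vector, against 4369 in A20. It was lower in AxJ, with a difference of -3.09 (SE 0.56, limma adjusted p = 0.0146). Metal levels were not measured, and the cause of this difference was not tested. Leaving out B5 or D6 ended the Tfrc call (adjusted p = 0.0689 without B5 and 0.054 without D6), and 2 iron genes were higher without the hnRNP-H array, under the higher filter and under the authors' scaling.

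The list of glutathione and thioredoxin defence held 31 measured genes, of which 5 were higher in AxJ, none was lower and 10 had an unadjusted p under 0.05 (limma). This is 16.1 percent called, beside 7.28 percent over all probe sets, and 21.2 percent of all probe sets had an unadjusted p under 0.05, while the list's median was 0.03, as over all probe sets. Gsto1, a glutathione transferase, read 848 in D6, 813 in B5, 972 in hnRNP-H and 970 in empty vector, against 30.9 in A20, a difference of 4.43 (SE 0.28, adjusted p = 0.000108). Prdx4, the peroxiredoxin of the secretory pathway, rose by 2.37 (SE 0.31, adjusted p = 0.00357). Glrx, a glutaredoxin, rose by 1.80 (SE 0.34) and Sod2, the mitochondrial superoxide dismutase, by 1.63 (SE 0.39). The remaining called gene was Txnip, an inhibitor of thioredoxin, at 1.26 (SE 0.30), named after its value was seen, while its other probe set differed by 0.01. The count was 1 without the intensity trend, 2 without B5, and 3 without D6, without the filter or with the AxJ controls only, and median scaling made 1 gene lower. Glrx did not pass without B5 (adjusted p = 0.0619), and neither Sod2 (0.113 without B5, 0.0912 without D6) nor Txnip (0.139 without B5, 0.142 without D6) passed without either clone.

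Of the known inducers, 10 genes of the glucocorticoid list were measured, and 10 percent of them were called, beside 7.28 percent over all probe sets. A cochaperone of the receptor, Fkbp4, was lower in AxJ (difference -1.12, SE 0.27, limma adjusted p = 0.0405), and none was higher, with a median of 0.12. That call was lost under 7 of 14 alternatives (adjusted p from 0.0535 to 0.181), among them the authors' scaling (0.115), without B5 (0.123) and without D6 (0.142). Among 18 genes of interleukin 6 and STAT3 signalling, Bcl3 was lower in AxJ (difference -2.34, SE 0.42, adjusted p = 0.0134) and none was higher, with a median of 0.06. This is 5.56 percent called, beside 7.28 percent over all probe sets. Junb of this list differed by -0.53 on its probe set of highest mean. Its other probe set was lower in AxJ and passed (-2.36, limma adjusted p = 0.0289). In this list 2 genes were higher with the Gapdh class as a block, 1 without the hnRNP-H array and 1 without empty vector. Bcl3 encodes a nuclear cofactor of NF-kB. In the hnRNP-F comparison none of the 97 genes of these lists other than Mt1 and Mt2 passed in limma, the lowest adjusted p being 0.790, and 2 had an unadjusted p under 0.05. Over all probe sets 5.79 percent had such a p in that comparison.

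**Figure D4:**
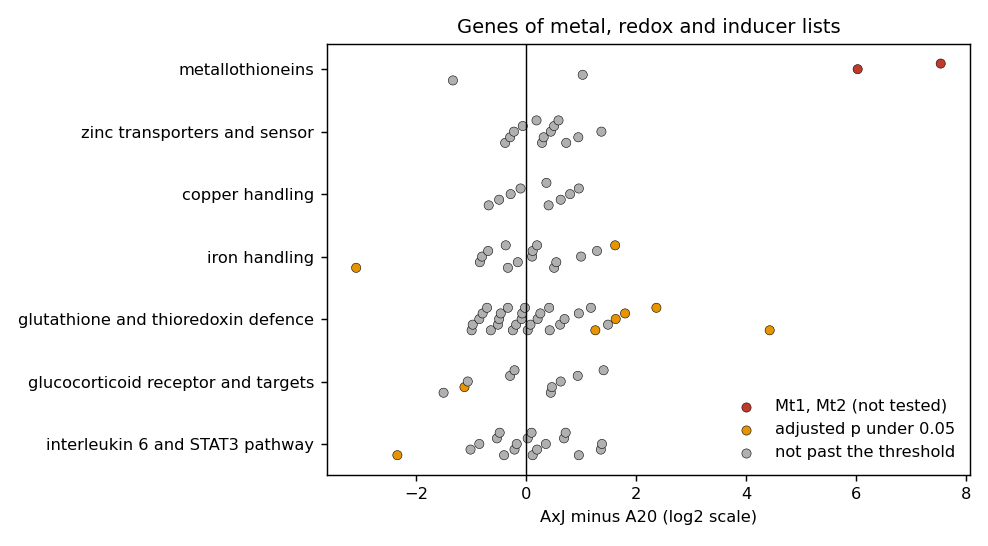
Difference of AxJ minus A20 (log2 scale) for each measured gene of the metallothionein, metal, redox and inducer lists, 1 point a gene, with vertical offsets only to part the points. Mt1 at 7.54 and Mt2 at 6.03 are the points farthest to the right, ahead of Gsto1 at 4.43, and Hmox1 at -3.09 is the point farthest to the left.

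Over all probe sets AxJ was higher for 348 probe sets (3.82 percent) and lower for 315 (3.46 percent), and median scaling of the arrays gave 267 higher and 488 lower. The total of 663 became 361 without B5, 344 without D6, 871 without hnRNP-H and 824 without empty vector. A20 had 1 array, assumed in the fit to vary like the AxJ lines. Without the intensity trend 10 of the genes named as called did not pass in limma (adjusted p from 0.0566 to 0.181): Hmox1, Bcl3, Prdx4, Tfrc, Glrx, Sod2, Txnip, Fkbp4, Cd28 and Pou2af1. Gsto1 passed under all 14 alternatives.

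The genes most like Mt1 and Mt2 over the 5 arrays were found by the root mean square distance between centred log2 profiles. Mt1 and Mt2 lay 0.64 from each other, so each lay 0.32 from their mean profile by construction. The distances of other genes are to that mean profile. The nearest was the alpha heavy chain gene Igha at 0.27, which read 8922 in D6, 10655 in B5, 9534 in hnRNP-H and 8345 in empty vector, against 55.1 in A20. That probe set differed by 7.17 between AxJ and A20, and the other Igha probe set kept by 2.59 (limma adjusted p = 0.006). Next was Fkbp11, which encodes a prolyl isomerase of the secretory pathway, at 0.29, with 838 in D6, 1054 in B5, 884 in hnRNP-H and 856 in empty vector, against 4.1 in A20. As deposited, B5 was the highest of the 5 arrays for both, as for Mt1 and Mt2, while after normalisation Mt2 was highest in hnRNP-H. Trap1a (0.57), which encodes the tumour antigen P1A, Cox6a2 (0.59), a subunit of cytochrome oxidase, Spn (0.63), which encodes CD43, Csn3 (0.66), the kappa casein gene, Tsc22d1 (0.70) and the mu heavy chain gene Ighm (0.71) followed. A single dim array sets most of this likeness, so it is given without a test. Of the 8 Ighm probe sets kept, the 7 others differed between AxJ and A20 by -0.13 to 1.35, against 6.72 for the one in this list. Of the 197 probe sets that read at least 2115 in every AxJ line, 4 fell in A20 by at least the factor of 59.2 seen for Mt2. They were those of Mt1, Trap1a, Igha and Mt2. The level of 2115 is the lowest AxJ value of Mt1 itself, so Mt1 and Mt2 are in this set by construction and the count is a description.

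**Figure D5:**
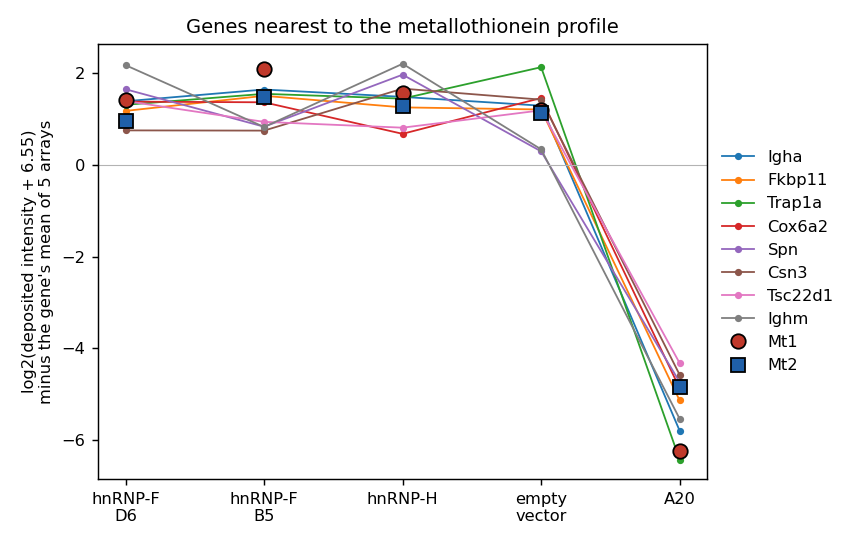
Profiles of Mt1, Mt2 and the 8 genes nearest to them, as log2(deposited intensity + 6.55) minus the gene's mean of the 5 arrays. The distances in the text use normalised values, and lines join arrays only to guide the eye. All genes drop on the A20 array and differ in their order among the AxJ lines.

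The labelled cell types were checked by markers. Of 11 plasma cell markers 6 were higher in AxJ and 1 was lower. This is 63.6 percent called, beside 7.28 percent over all probe sets. Among the higher, Igha differed by 7.17 (SE 0.36, with 2.59 for its other probe set), Fkbp11 by 6.21 (SE 0.30), Prdm1 by 3.60 (SE 0.43) and Cd28 by 2.43 (SE 0.59). The exception was Pou2af1 at -1.35 (SE 0.31, limma adjusted p = 0.0373), named after its value was seen, and Sdc1, which encodes the plasma cell antigen CD138, read 21.9 to 45.2 in AxJ and 26.2 in A20 on its probe set of highest mean, with a difference of 0.17. The other Sdc1 probe set differed by 2.32 and did not pass (limma adjusted p = 0.0906). Of 13 B cell markers 8 were lower in AxJ and none was higher, which is 61.5 percent called. The differences were -6.17 for Bcl6, -6.13 for H2-Aa, -5.96 for Spib and -4.81 for Ms4a1. A second Spib probe set differed by -0.97 and did not pass (limma adjusted p = 0.523). Summed marker levels ran from 18711 to 21528 in AxJ and 4707 in A20 for plasma cells, and from 3255 to 4902 in AxJ and 12245 in A20 for B cells. The 6 plasma cell calls became 3 without D6 and 3 without the intensity trend. Cd28 did not pass without D6 (limma adjusted p = 0.119), hnRNP-H (0.0644) or empty vector (0.0805), nor Pou2af1 without B5 (0.0924) or D6 (0.134).

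Markers of other cell types were read in the same fit. None of the measured markers of T cells (2), myeloid cells (9), stromal cells (8) and erythroid cells (4) passed between AxJ and A20 in limma, and 2, both myeloid, had an unadjusted p under 0.05. These were the neutrophil protease gene Elane at 1.52 (SE 0.47) and the macrophage gene Adgre1 at -1.93 (SE 0.81). Elane read 41.8 to 68.6 in AxJ and 10.3 in A20, and Adgre1 read 2.59 to 5.25 in AxJ and 27.6 in A20. Each lay under the filter level of 21.8 on its lower side, so both sizes depended on the pseudocount. Over all probe sets 7.28 percent were called and 21.2 percent had an unadjusted p under 0.05. Elane passed under the authors' scaling (limma adjusted p = 0.0488) and Adgre1 without the filter (0.0391). Summed levels were 62.5 to 145 in AxJ and 59.1 in A20 for T cell markers, 367 to 522 in AxJ and 353 in A20 for myeloid, 529 to 675 in AxJ and 387 in A20 for stromal, and 170 to 226 in AxJ and 185 in A20 for erythroid markers. Their part in the metallothionein difference was not tested. Of the 9 T cell genes on the array, 7 stayed under 21.8 on every array. Named by the fixed rule, Cd4 differed by 0.42, Zap70 by 0.11, Dcn by 1.24, Col1a2 by 0.67, Klf1 by -0.94 and Gata1 by 0.45.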

How the data were processed

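The values are linear array intensities as deposited, 1 per probe set and array. The authors' scaling, read from the deposited intensities, gave each array a like trimmed mean. The software and the background step are not stated in the labels, and no detection calls came with the table. Symbols came from the 2016 array annotation, updated through gene identifiers: 10855 probe sets had 1 symbol, 396 several (not named) and 1237 none. Each gene was read from its probe set of highest mean log2 value. Shares of a list therefore count 1 probe set a gene. The shares over all probe sets count every probe set kept, dim and repeated ones included. Arrays were quantile normalised, and differences taken on the scale of log2(intensity + 6.55), the 20th percentile. Kept were 9107 probe sets with a highest value over 21.8, the 40th percentile. limma 3.58.1 in R 4.3.3 (lmFit, eBayes with trend) was fitted to all 5 arrays with coefficients for hnRNP-F clones, AxJ controls and A20 (2 residual degrees of freedom, prior 6.46). P-values are two-sided, adjusted by Benjamini-Hochberg over all probe sets kept, with a threshold of 0.05. The AxJ side is the mean of the clone and control coefficients. With 2 arrays against 2 an exact permutation test could not reach the threshold. The number of arrays limits the precision. The procedure was tested on simulated data.

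Members and lists were chosen with earlier results of these data known. Named were the metallothioneins and Mtf1, per list up to 4 genes called between AxJ and A20, otherwise the 2 with the largest statistic, the 8 nearest profiles and the nearest neighbours. Sequences came from RefSeq. Alternatives covered pseudocount, filter, scaling, spread model, Gapdh class, grouping and each AxJ array left out.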

Additional observations from a re-analysis of the deposited data

How the results depend on the processing

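Mt1 and Mt2 stayed far above A20 in the AxJ lines under all 14 alternatives run, with log2 differences from 6.50 to 8.23 for Mt1 and from 5.85 to 6.14 for Mt2, and from 7.38 to 7.72 and 5.90 to 6.14 when an AxJ array was left out. Only the pseudocount moved Mt1 by more than its spread (8.23 and 6.50). In the hnRNP-F comparison neither gene passed under any of 12 alternatives: Mt1 ranged from 0.10 to 0.61, and Mt2 turned sign under the authors' scaling (0.01) and median scaling (0.03), with a range of -0.41 to 0.26 over the arrays left out. The differences of Mt3 (-0.20 to 0.12) and Mtf1 (-0.18 to 0.84) also crossed 0 there, and that of Zap70 between AxJ and A20 did so with the Gapdh class as a block (-0.01) and over the arrays left out (-0.21 to 0.42). For hnRNP-H minus empty vector Mt2 moved to 0.14 under the authors' scaling and 0.29 under median scaling. The count of calls for hnRNP-F was 0 without the filter, 0 without the intensity trend and 1 to 3 over the arrays left out, against 1. The count for AxJ minus A20 was 186 without the trend and 344 to 871 over the arrays left out, against 663. Under the authors' scaling the median of all probe sets in that comparison was 0.14, against 0.03, and 52.6 percent of calls were higher in AxJ. Under median scaling 35.4 percent were, against 52.5 percent. Of 552 repeats for 40 other named genes, 505 kept direction and side of the threshold, 38 lost the call, 6 gained one and 3 turned sign; the cause was not tested. No paired analysis was possible because the labels give the groups no shared replicate numbers. A single A20 array, and no detection calls, limit what can be said of dim values.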
